A study of Mus musculus with 8 samples.

Results

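The genes described here are 10 genes of the axon: the 4 subunits of the neurofilament of central neurons (Nefl, Nefm, Nefh and Ina), 3 genes of the growing axon (Gap43, Stmn2 and Tubb3) and 3 genes known for their induction in injured neurons (Atf3, Sox11 and Sprr1a). The list was given by symbol, and each symbol matched 1 gene of the 54532 in the table of the stroke experiment and 1 of the 28229 in the table of the drug experiment. RNA-seq was performed on 8 libraries of brain tissue from male C57BL/6 mice at Day 21. In the stroke experiment, 2 libraries of the PTS + RS group (photothrombotic stroke of the cortex followed by daily restraint stress) were compared with 2 of the RS group (restraint stress alone), all labelled cortex. In the drug experiment every mouse had PTS + RS by the authors' account. Here 2 libraries with RGFP109 were compared with 2 vehicle libraries, which the labels call NaCl. RGFP109 inhibits histone deacetylases. The labels call it an HDAC3 inhibitor, and the authors describe it as selective for HDAC1 and HDAC3. By the labels it was given subcutaneously at 60 mg/kg once a day for 2 weeks. The sources used here differ on how long RGFP109 was given, so its timing before Day 21 is uncertain. There, replicate 1 of each group was labelled cortex and replicate 2 amygdala. No genotype other than the strain was given. An age is given only in the protocol of the open-field test and not for these libraries, and the number of mice in a library was not given in the sources used here, so the p-values measure only the spread between these libraries, which may be technical.

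Neurofilaments are the intermediate filaments of the axon. Nefl, Nefm, Nefh and Ina proteins assemble into one polymer whose amount sets the calibre of large myelinated axons, and neurofilament protein released into blood is widely used as a marker of axonal damage. When an axon of a peripheral neuron is cut, the cell body switches on transcription factors such as Atf3 and Sox11 and growth proteins such as Gap43 and Sprr1a, and lowers its neurofilament mRNA. Neurons of the adult brain mount this programme weakly and mostly when the cut lies close to the cell body.

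The depth was 15902013 to 21712033 counts on genes per library (median 16999262). Levels are given in CPM (counts scaled to a common library size after normalization within each table). Levels of different genes are compared only in FPKM, which is also divided by gene length. This is the deposited FPKM unless another length is named. Of the 10 genes, 9 had enough counts to be tested in each comparison. Several libraries stood apart in marker genes, as the plot of summed marker levels shows. Vehicle replicate 1, labelled cortex, held 1314 CPM of 9 olfactory bulb genes against 17.3 to 29.5 CPM in the other 7 libraries, and 278 CPM of 10 cerebral cortex genes against 618 to 767 CPM. The pair labelled amygdala held 989 and 1131 CPM of 8 striatal genes, against 76.3 to 199 CPM in the other 6 libraries. The 10 amygdala genes summed to 243 and 252 CPM in that pair, to 166 to 210 CPM in 5 of the other libraries and to 703 CPM in vehicle replicate 1. These sums followed 1 gene, Meis2, and say little about the other amygdala genes. Meis2 was at 144 and 148 CPM in the pair, at 43.1 to 62.1 CPM in those 5 libraries and at 626 CPM in vehicle replicate 1. Of the 8 amygdala genes tested between the labelled tissues, 6 were above 0 in the amygdala-labelled pair (median log2 difference 0.53) and 0 passed, while the transcription factors Otp and Sim1, with at most 4 counts in any library, were not tested. PTS + RS replicate 2 held 44.6 CPM of 6 choroid plexus genes, where the other 3 libraries of the stroke experiment held 1590 to 3741 CPM. In the drug experiment RGFP109 replicate 1 held 1492 CPM of them and the other 3 libraries 14.2 to 44.6 CPM. The 10 microglial genes summed to 1195 and 1005 CPM in the PTS + RS libraries and to 293 and 266 CPM in the RS libraries. All 10 passed the test as higher, where 2.96% of all genes tested did. The cortex-labelled libraries of the drug experiment lay nearer to the RS libraries, with 343 CPM (RGFP109) and 269 CPM (vehicle). Their Gfap levels were 438 and 289 CPM, against 2055 and 1450 CPM in the PTS + RS and 371 and 353 CPM in the RS libraries. The tables were normalized separately, and the reason for these levels was not tested.

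**Figure D1:**
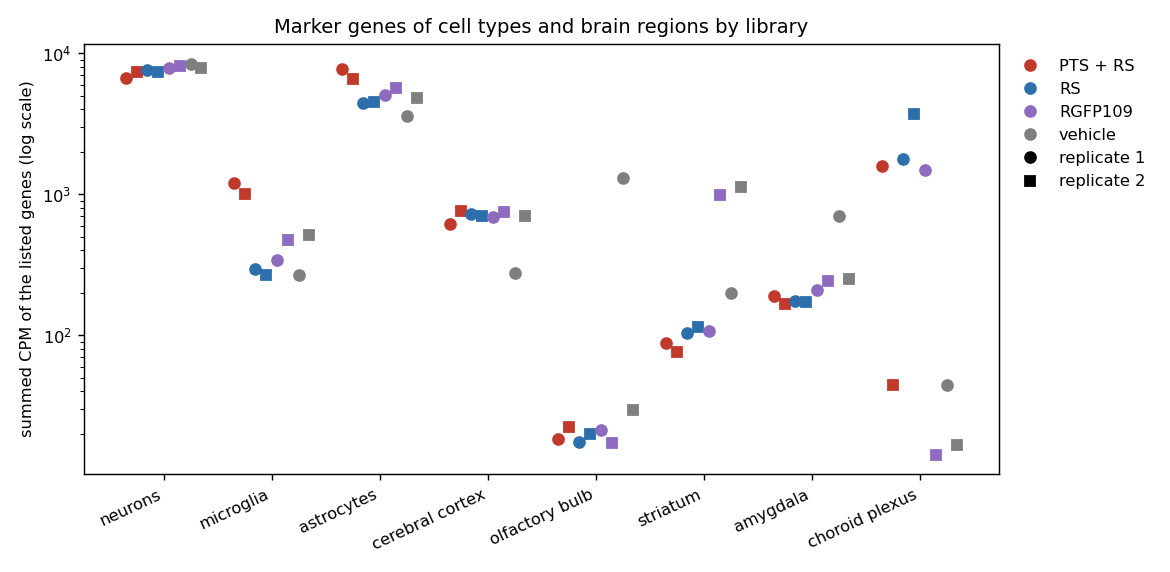
Summed CPM of the genes of 8 marker lists (log scale) in each of the 8 libraries, coloured by group, with circles for replicate 1 and squares for replicate 2. Vehicle replicate 1 lies at 1314 CPM of olfactory bulb genes and the amygdala-labelled pair at 989 and 1131 CPM of striatal genes. The neuronal sums lie between 6735 and 8474 CPM in all 8 libraries, but their make-up differs in vehicle replicate 1. There Gad1 was at 1568 CPM (280 to 346 CPM in the other libraries) and Slc17a7 at 977 CPM (1069 to 1516 CPM in the others).

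For the 3 injury-induced genes, the 250 bases before the RefSeq transcription start are shown first, because Atf3 was the only one of the 10 genes that edgeR called after the filter on low counts with all 4 libraries of a comparison, and Sprr1a was at the limit of detection. The sequences are those of RefSeq on GRCm38.p6, from a set of windows in which 5 of the 10 genes were matched, read 5′ to 3′ on the strand of the gene. They lie at chr1:191183334-191183583 (minus strand, Atf3), chr12:27342719-27342968 (minus strand, Sox11) and chr3:92485882-92486131 (minus strand, Sprr1a). Capitals mark matches on either strand to the AP-1 site TGANTCA, the CRE core TGACG, the TATA box TATAAA and the GC box GGGCGG.
Atf3: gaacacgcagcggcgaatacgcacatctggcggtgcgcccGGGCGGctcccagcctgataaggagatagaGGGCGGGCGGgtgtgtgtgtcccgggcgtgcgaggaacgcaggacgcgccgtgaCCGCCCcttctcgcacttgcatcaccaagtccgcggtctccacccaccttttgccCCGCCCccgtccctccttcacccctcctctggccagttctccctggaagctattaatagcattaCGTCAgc
Sox11: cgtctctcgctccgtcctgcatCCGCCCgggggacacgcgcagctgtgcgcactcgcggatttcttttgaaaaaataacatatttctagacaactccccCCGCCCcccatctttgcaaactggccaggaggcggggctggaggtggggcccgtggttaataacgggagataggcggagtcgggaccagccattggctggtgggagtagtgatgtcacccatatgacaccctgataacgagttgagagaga
Sprr1a: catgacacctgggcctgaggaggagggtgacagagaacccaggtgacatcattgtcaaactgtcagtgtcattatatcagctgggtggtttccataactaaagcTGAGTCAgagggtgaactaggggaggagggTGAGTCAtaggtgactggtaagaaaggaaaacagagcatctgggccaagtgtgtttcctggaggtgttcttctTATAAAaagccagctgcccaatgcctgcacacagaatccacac
The Sprr1a window held 2 AP-1 sites, whose leftmost bases are at -146 and -116 counted from the start, and a TATA box at -43. The Atf3 window held 1 CRE core at -7 on the opposite strand and 5 GC boxes, of which those at -180 and -176 overlap, and the full palindrome TGACGTCA was not in it. The Sox11 window held 2 GC boxes and no match to the other motifs. Over the 32851 RefSeq windows of the same length, 6.75% held an AP-1 site, 17.8% a CRE core, 12.4% a TATA box and 32.7% a GC box. The GC content was 65.2% for Atf3, 58% for Sox11 and 49.6% for Sprr1a, beside a median of 52.4% over all windows. In the GENCODE M21 annotation, 7 bases of the Atf3 window and 14 of the Sprr1a window lie in the annotated exon of the gene itself, and another Atf3 transcript starts upstream at 191218039. The only annotated Sox11 transcript starts at 27342574, downstream of the end of its window at 27342719, and the bases between are not shown. A match is a description of the letters and not of binding.

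In the stroke experiment, the injury factor Atf3 was upregulated in the PTS + RS group about 4-fold, and the other 8 tested genes did not pass the test. The neurofilament subunits were between 0.818 and 0.956 of their RS level, and Sox11 was 1.38 times its RS level, all short of the threshold (adjusted p under 0.05, edgeR's quasi-likelihood test over all 17581 tested genes). Thus 1 of the 9 tested genes was called higher and 0 lower. Over all genes tested, 2.96% were called higher and 0.586% lower. Before adjustment, 4 of the 9 genes and 3139 of all 17581 had a p under 0.05 in edgeR's test. In bulk tissue, fewer cells of a type and less RNA per cell cannot be told apart.

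Atf3, at chr1:191170296-191218039, encodes a stress-induced transcription factor of the ATF/CREB family that is nearly silent in resting neurons. Its level was 4.49 and 3.41 CPM in the PTS + RS libraries (77 and 57 counts) and 0.661 and 1.32 CPM in the RS libraries (12 and 21 counts). Both PTS + RS libraries were above both RS libraries. The log2 fold change was 2.00 (SE 0.393, 95% CI 1.08 to 2.93, adjusted p = 0.0436). The call was lost when RS replicate 1 was left out (log2 fold change 1.57, adjusted p = 0.137) and with limma-voom (adjusted p = 0.0529). It was kept without PTS + RS replicate 2, the library low in choroid plexus genes (log2 fold change 2.19, adjusted p = 0.00620). Atf3 is also induced in glia and macrophages, and the microglial sum given above moved with it. The part of microglia in the Atf3 difference was not tested.

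Sox11, at chr12:27334264-27342574, is a single-exon gene for a transcription factor of immature and regenerating neurons. Its level was 32.2 and 33.1 CPM in the PTS + RS libraries and 25.1 and 22.1 CPM in the RS libraries. The groups did not overlap, and the log2 fold change was 0.47 (SE 0.113, adjusted p = 0.0776). Sox11 passed in 3 of the 9 alternative fits. Among them was the edgeR fit without the filter on low counts (adjusted p = 0.0161), which called 3.72% of all genes tested higher. Sprr1a, at chr3:92483952-92485895, encodes a small proline-rich protein that peripheral neurons switch on strongly after axotomy. It had 1 count in PTS + RS replicate 1 and 0 counts in the other 3 libraries of the stroke experiment, where 0 counts allow a level of up to 0.165 to 0.189 CPM (3 counts, counting error only). Sprr1a was therefore not detectable at this depth in either group, and it was not tested.

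**Figure D2:**
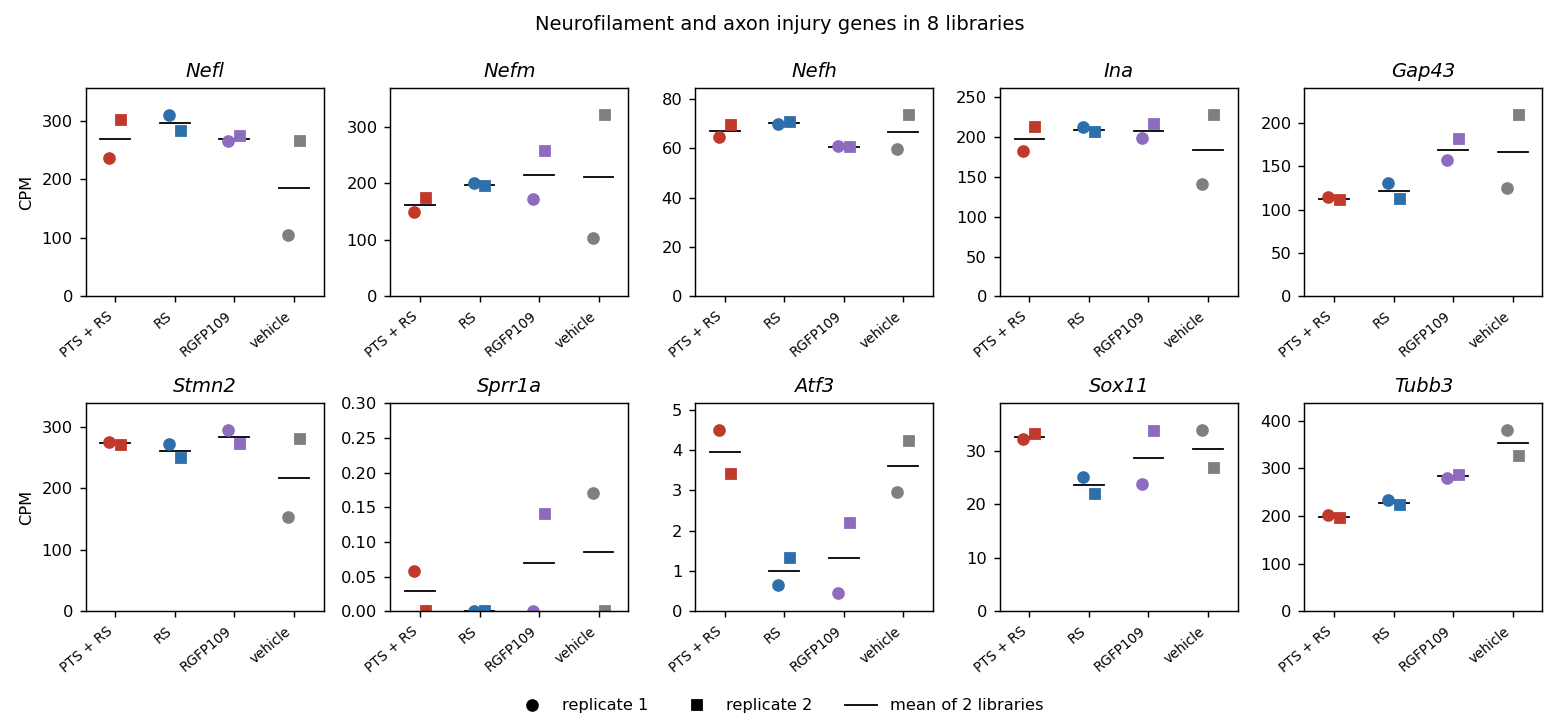
CPM of each of the 10 genes in the 8 libraries, with circles for replicate 1, squares for replicate 2 and a line at the mean of the 2 libraries of a group; each vertical axis starts at 0. Atf3 and Sox11 lie higher in both PTS + RS libraries than in both RS libraries, and vehicle replicate 1 is the lowest library for Nefl (105 CPM) and Stmn2 (153 CPM) and the highest for Tubb3 (379 CPM).

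Of the neurofilament subunits, Nefl, the light chain on which the polymer is built, had the highest deposited FPKM in 7 of 8 libraries and Nefh the lowest in all 8. Nefl, at chr14:68083863-68089095, was at 236 and 302 CPM in the PTS + RS libraries and at 309 and 282 CPM in the RS libraries. The groups overlapped, with a log2 fold change of -0.14 (SE 0.124, adjusted p = 0.625). Nefm, the medium chain, at chr14:68082590-68124846, was at 149 and 174 CPM in the PTS + RS libraries and at 200 and 196 CPM in the RS libraries. Both PTS + RS libraries were lower, and the log2 fold change was -0.29 (SE 0.0918, 95% CI -0.51 to -0.07, adjusted p = 0.161). Nefh, the heavy chain of mature large axons, at chr11:4938754-4948064, was at 64.5 and 69.6 CPM in the PTS + RS libraries against 69.6 and 70.6 CPM in the RS libraries, a log2 difference of -0.06 (SE 0.0810, adjusted p = 0.738), with the nearest libraries of the groups level at this rounding. Ina, the alpha-internexin subunit of central neurons, at chr19:47014698-47025327, was at 183 and 213 CPM against 212 and 206 CPM, a log2 difference of -0.08 (SE 0.0921, adjusted p = 0.710).

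How far these subunits stood from the RS group depended on PTS + RS replicate 1, although Nefm was below both RS libraries in PTS + RS replicate 2 as well. The summed CPM of the subunits was 632 in PTS + RS replicate 1 and 754 to 791 in the other 3 libraries of the stroke experiment. Leaving out PTS + RS replicate 1 gave a log2 fold change of 0.03 for Nefl (adjusted p = 0.845) and -0.18 for Nefm (adjusted p = 0.0967). Leaving out PTS + RS replicate 2 gave -0.33 for Nefl (adjusted p = 0.0101) and -0.41 for Nefm (adjusted p = 0.00173), so that both were then called lower, as were 6.96% of all genes tested in that fit. Such fits assume that the lone library of a group varies like the libraries of the other group. PTS + RS replicate 1 also had the lowest sum of 10 neuronal marker genes, 6735 CPM against 7334 to 7594 CPM, and the highest microglial sum, and the part of either in the Nefl and Nefm values was not tested. Of the neurons richest in neurofilament, the markers of layer 5 and 6 projection neurons (8 genes) summed to 647 and 712 CPM in the PTS + RS libraries and to 738 and 733 CPM in the RS libraries, and those of parvalbumin interneurons (5 genes) to 396 and 386 CPM against 439 and 421 CPM. Gene by gene, 4 of the 8 layer 5 and 6 markers were above 0 in log2 fold change and 4 below (median -0.03). Of the 5 interneuron markers, 1 was above 0 and 4 below (median -0.17). No gene of these lists passed the test, and their part in the neurofilament levels was not tested.

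The count of Nefl and Nefm is uncertain in one region. In the GENCODE M21 annotation, whose exonic lengths equal the deposited ones for all 10 genes, the last exon of a second Nefm transcript overlaps Nefl on the opposite strand at chr14:68083863-68084970. This is 1108 bases, 32.8% of the exonic bases of Nefl and 19.2% of those of Nefm. Whether reads were counted by strand was not given in the sources used here, so reads from this stretch may have been dropped or given to either gene. Ina shares 456 exonic bases (14.1%) with Nt5c2 on the opposite strand.

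The composition of the neurofilament mRNA was compared as each subunit's share of the summed FPKM. In the stroke experiment the Nefl share was 41.5% and 44.1% in the PTS + RS libraries and 43.7% and 42.0% in the RS libraries. The Nefm share was 15.4% and 14.9% in the PTS + RS libraries and 16.5% and 17.1% in the RS libraries. The Nefh share lay between 8.34% and 9.60% and the Ina share between 31.4% and 33.5% in these 4 libraries. The groups did not overlap in the shares of Nefm, lower in the PTS + RS group, and Ina, higher at 33.5% and 32.4% against 31.4% and 32.0%, and these share differences were not tested. Vehicle replicate 1 stood apart from the other 7 libraries in 3 subunits, with 28.9% Nefl against 35.3% to 44.1%, 13.9% Nefh against 7.29% to 9.60%, and 40.4% Ina against 31.4% to 33.5%. Its summed neurofilament level was 106 FPKM, where the other 7 libraries had 167 to 222 FPKM. The amygdala-labelled pair had the highest Nefm shares, 21.5% with RGFP109 and 24.9% with vehicle, against 14.9% to 17.1% in the other 6 libraries. The deposited Nefm length counts the exons of both transcripts. The share was also taken on the length of the transcript with the longest coding sequence (3334 in place of 5782 bases), with all Nefm reads kept. It was then 32.2% and 36.5% in that pair and 23.3% to 26.3% in the other 6 libraries. On that length Nefm was above Nefl in both vehicle libraries, at 31.0 against 30.7 FPKM in replicate 1 and at 95.8 against 78.2 FPKM in replicate 2.

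**Figure D3:**
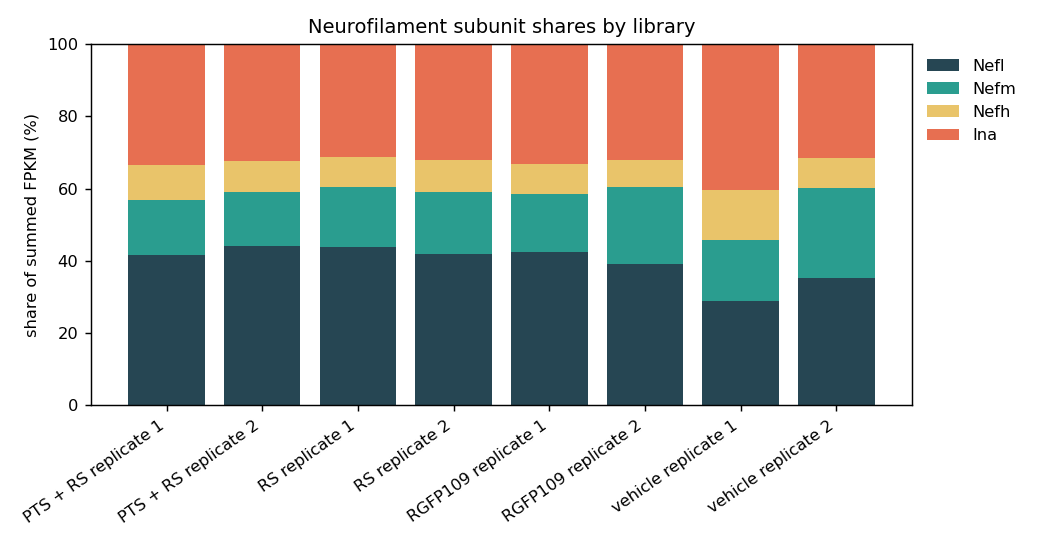
Share of Nefl, Nefm, Nefh and Ina in their summed FPKM (percent, stacked to 100) for each of the 8 libraries. The Nefl share is lowest in vehicle replicate 1 (28.9%), and the Nefm share is highest in the replicate 2 libraries of the drug experiment (21.5% and 24.9%).

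Of the 3 growth genes, 0 passed the test in the stroke experiment. Gap43, at chr16:42248442-42340651, encodes a membrane protein of the growth cone. It was at 114 and 111 CPM in the PTS + RS libraries and at 130 and 112 CPM in the RS libraries, a log2 difference of -0.11 (95% CI -0.32 to 0.11, adjusted p = 0.597). Stmn2, at chr3:8509360-8561606, encodes a stathmin that regulates microtubules in growing axons. It was at 275 and 270 CPM against 272 and 250 CPM, a log2 difference of 0.06 (95% CI -0.12 to 0.25, adjusted p = 0.737). The libraries overlapped between the groups for both genes. Tubb3, at chr8:123411424-123422015, encodes the neuronal class III beta-tubulin. It was at 201 and 195 CPM in the PTS + RS libraries and at 232 and 222 CPM in the RS libraries, lower in both, with a log2 difference of -0.20 (95% CI -0.37 to -0.03, adjusted p = 0.218). Without PTS + RS replicate 1 Tubb3 was called lower (log2 difference -0.22, adjusted p = 0.0449), as were 4.13% of all genes tested. Libraries of the groups did not overlap for 5 of the 9 tested genes (Atf3 and Sox11 higher, Nefm, Nefh and Tubb3 lower). The same held for 50.2% of all genes tested.

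The order of levels per length, in deposited FPKM, put Tubb3 at 104 to 201 and first in all 8 libraries. Gap43 (72.8 to 136 FPKM) and Nefl (30.7 to 91.0 FPKM) came next in all libraries except vehicle replicate 1, where Ina came before Nefl. In the RS group Nefl was at 87.1 ± 5.52 and Gap43 at 79.3 ± 8.07 FPKM (SD, n = 2), and these neighbours did not differ beyond their spread. Sox11 (2.65 to 4.06 FPKM), Atf3 (0.206 to 2.07 FPKM) and Sprr1a (0 to 0.209 FPKM) were the 3 lowest in every library. Besides that of Nefm, the place of Stmn2 depended on the length. Its deposited length of 5602 bases includes retained introns, and on the 2073 bases of its coding transcript its mean rose from 48.4 to 131 FPKM in the PTS + RS group and from 46.4 to 125 FPKM in the RS group. All Stmn2 reads were kept, also those of its other transcripts, so these values are upper limits for the coding transcript. On them Stmn2 ranked first in the 4 libraries of the stroke experiment, with Tubb3 next, while Tubb3 stayed first in the 4 libraries of the drug experiment.

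Other genes of the axon were examined as 3 lists. The first held 19 genes of the axonal cytoskeleton (other filaments, microtubule-associated proteins, spectrins, ankyrins and motors). Of these, 1 was called higher and 0 lower, where 2.96% and 0.586% of all genes tested were. The median log2 fold change was -0.01 beside -0.0015 over all tested genes. The gene called was Vim, an intermediate filament of glia, endothelium and immature neurons. Vim was at 274 and 180 CPM in the PTS + RS libraries and at 53.0 and 52.5 CPM in the RS libraries, with a log2 fold change of 2.10 (SE 0.186, adjusted p = 0.00201). Gfap, the filament of reactive astrocytes, was at 2055 and 1450 CPM against 371 and 353 CPM. Of 8 astrocyte markers, 5 passed the test as higher, where 2.96% of all genes tested did. The part of astrocytes in the Vim difference was not tested. Of 20 genes of the growth cone and of microtubule growth, 0 passed in either direction, with log2 fold changes from -0.20 to 0.26 and a median of 0.07. Under edgeR, 1 of these 20 and 2 of the 19 cytoskeleton genes had an unadjusted p below 0.05, where 3139 of all 17581 tested genes did.

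Of 29 genes of regeneration and the injury response, 27 were tested, 1 was called higher and 0 lower, and the median log2 fold change was 0.18. Over all genes tested, 2.96% were called higher and 0.586% lower. Under edgeR, 8 of the 27 had an unadjusted p below 0.05, where 3139 of all 17581 tested genes did. The gene called was Cd44, a hyaluronan receptor of reactive glia and leukocytes that is also counted among regeneration genes. Cd44 was at 28.3 and 17.6 CPM in the PTS + RS libraries and at 5.40 and 3.15 CPM in the RS libraries (log2 fold change 2.41, SE 0.314, adjusted p = 0.00897). The genes nearest to the threshold, named here after their values were seen, were Stat3, with a log2 fold change of 0.48 (adjusted p = 0.0508), and Socs3, its feedback inhibitor, with 1.27 (adjusted p = 0.0723). All 3 are genes of glia as well as of neurons. Without the filter on low counts, 5 of the list were called higher and 1 lower, where 3.72% and 2.38% of all genes tested were. With DESeq2, 2 of the list were called higher, and 3.49% of all genes tested.

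**Figure D4:**
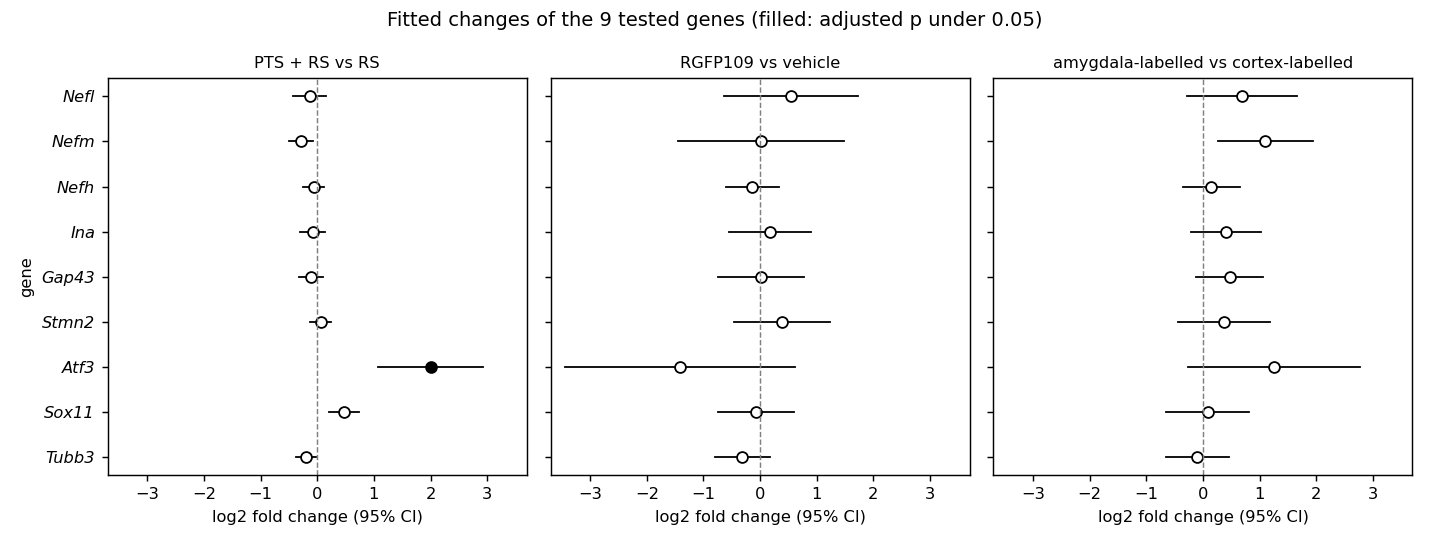
Log2 fold change with its 95% confidence interval for the 9 tested genes in the 3 comparisons; a filled point marks a gene past the threshold of 0.05 for the adjusted p. Atf3 in PTS + RS against RS (2.00) is the only filled point, and the intervals are wider in the comparisons of the drug experiment.

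In the drug experiment, RGFP109 against vehicle, 0 of the 9 genes passed the test in either direction. Over all 17565 tested genes, 0% were called by edgeR, and DESeq2 and limma-voom also called 0 genes, while 206 had an unadjusted p below 0.05 under edgeR. None of the 9 genes was among those 206. Nefl was at 265 and 273 CPM with RGFP109 and at 105 and 265 CPM with vehicle. Only vehicle replicate 1, the library high in olfactory bulb genes, stood apart, and the log2 difference of 0.54 had a 95% CI of -0.64 to 1.73. Without that library, which leaves RGFP109 libraries of both labelled tissues against 1 amygdala-labelled vehicle library, it was 0.02. Stmn2 showed the same layout, at 294 and 271 CPM with RGFP109 and at 153 and 279 CPM with vehicle (log2 difference 0.39, 95% CI -0.46 to 1.23). Without vehicle replicate 1 it was 0.01. The part of olfactory bulb tissue in the vehicle replicate 1 values was not tested.

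Nefm was at 172 and 258 CPM with RGFP109 and at 104 and 320 CPM with vehicle, a log2 difference of 0.02 (95% CI -1.45 to 1.49). Ina was at 198 and 217 CPM with RGFP109 and at 141 and 227 CPM with vehicle (log2 difference 0.17, 95% CI -0.55 to 0.90). Gap43 was at 157 and 181 CPM with RGFP109 and at 125 and 208 CPM with vehicle (log2 difference 0.02, 95% CI -0.74 to 0.78). For all 3, both RGFP109 libraries lay between the vehicle libraries, and the log2 differences without vehicle replicate 1 were -0.58, -0.14 and -0.31. Without vehicle replicate 1 no cortex-labelled vehicle library is left, so these last 3 differences mix treatment and labelled tissue. Within the amygdala label the log2 ratios were -0.31, -0.07 and -0.20. Nefh was at 60.7 and 60.3 CPM with RGFP109 and at 59.6 and 73.3 CPM with vehicle (log2 difference -0.13, 95% CI -0.60 to 0.33). It was the subunit with the narrowest interval, and vehicle replicate 1 did not stand apart in it.

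Atf3 was at 0.443 and 2.19 CPM with RGFP109 (7 and 47 counts) and at 2.95 and 4.23 CPM with vehicle (52 and 78 counts). Both RGFP109 libraries were below both vehicle libraries, but the log2 difference of -1.42 had a 95% CI of -3.45 to 0.61. It was -0.71 without RGFP109 replicate 1, -3.00 without RGFP109 replicate 2, -1.65 without vehicle replicate 1 and -1.12 without vehicle replicate 2. The microglial sums were 343 and 472 CPM with RGFP109 and 269 and 512 CPM with vehicle, and their part in the Atf3 values was not tested. Sox11 was at 23.8 and 33.7 CPM with RGFP109 and at 33.9 and 26.8 CPM with vehicle, with opposite order in replicate 1 and replicate 2. Tubb3 was at 280 and 285 CPM with RGFP109 and at 379 and 325 CPM with vehicle, lower in both RGFP109 libraries (log2 difference -0.32, 95% CI -0.81 to 0.17). Sprr1a had 0 and 3 counts with RGFP109 and 3 and 0 counts with vehicle, at or under the limit of 3 counts. Libraries did not overlap for 3 of the 9 genes (Nefl higher, Atf3 and Tubb3 lower), and for 26.7% of all genes tested. For Nefl the nearest libraries, RGFP109 replicate 1 and vehicle replicate 2, were level at this rounding (265 CPM).

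Within each replicate number, which is also the labelled tissue, 1 library was set against 1 library, so the intervals cover counting error only. In replicate 1 (labelled cortex) the log2 ratio of RGFP109 to vehicle was 1.34 for Nefl (95% interval 1.26 to 1.42), 0.94 for Stmn2, 0.72 for Nefm, 0.49 for Ina and 0.32 for Gap43, against the olfactory bulb-rich vehicle library. In replicate 2 (labelled amygdala) the same ratios were 0.04 (-0.01 to 0.10), -0.04, -0.31, -0.07 and -0.20. Atf3 was lower with RGFP109 in both numbers, with log2 ratios of -2.73 (-4.12 to -1.59) and -0.95 (-1.50 to -0.41), and Tubb3 was lower in both, with -0.44 and -0.19. Over all genes compared, 16.7% differed by more than 2-fold in replicate 1 and 3.9% in replicate 2. In replicate 1, Nefl and Atf3 were over that fold, and in replicate 2 none of the 9 genes was.

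**Figure D5:**
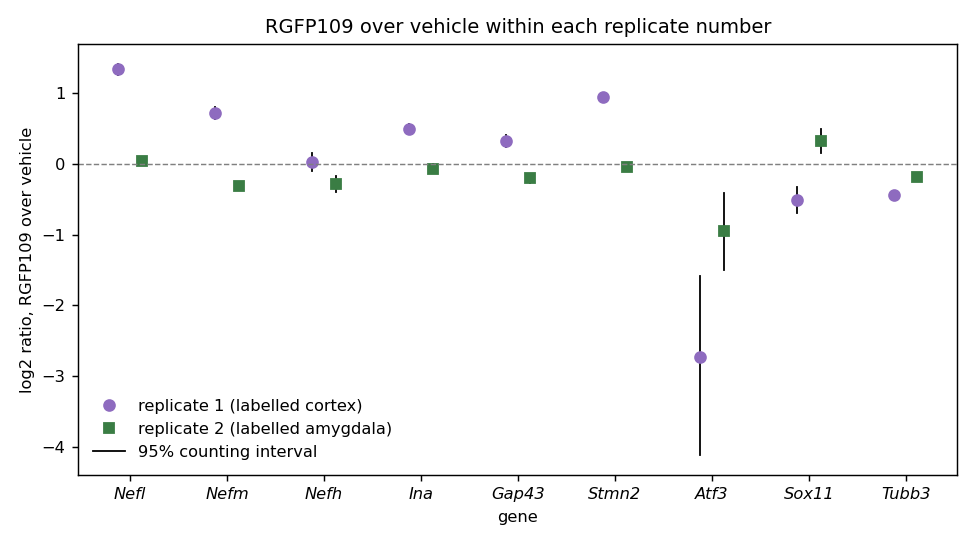
Log2 ratio of RGFP109 to vehicle for each gene within replicate 1 (circles, labelled cortex) and replicate 2 (squares, labelled amygdala), with 95% intervals for counting error. Nefl, Nefm, Ina, Gap43 and Stmn2 lie above 0.3 in replicate 1 and between -0.31 and 0.04 in replicate 2, whereas Atf3 and Tubb3 lie below 0 in both.

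No gene of the wider lists was called under RGFP109. Of the axonal cytoskeleton genes, 0 of 19 passed, 17 were above 0 and the median log2 fold change was 0.23. Of the growth cone genes, 0 of 20 passed, with a median of -0.04. Of the regeneration and injury genes, 0 of 26 tested passed, 18 were below 0, and the median was -0.19. Over all 17565 tested genes, 8325 were above 0 and 9240 below 0, and the median was -0.02. Vehicle replicate 1, the library high in olfactory bulb genes, enters all these values, and its part in them was not tested. With edgeR, 1, 0 and 2 genes of these lists had an unadjusted p below 0.05.

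The labelled tissues were compared in the same 4 libraries, with treatment as a covariate. Replicate number and tissue label are the same, so that they cannot be told apart. Of the 9 genes, 0 passed, and edgeR called 0% of the 17565 tested genes, although 1607 had an unadjusted p below 0.05. DESeq2 called 207 genes, 1.18%, and limma-voom called 0. Nefm had the largest difference among the neurofilament subunits, at 258 and 320 CPM in the amygdala-labelled and 172 and 104 CPM in the cortex-labelled libraries. Both amygdala-labelled libraries were higher, with a log2 difference of 1.10 (SE 0.317, 95% CI 0.26 to 1.94, adjusted p = 0.473). Libraries did not overlap for Nefm, Ina and Gap43, all higher in the amygdala-labelled pair, that is for 3 of the 9 genes and for 44% of all genes tested. Log2 differences were 0.41 for Ina (adjusted p = 0.708) and 0.47 for Gap43 (adjusted p = 0.637).

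Which cortex-labelled library served as reference changed these calls. With RGFP109 replicate 1 as the only cortex-labelled library, and without the treatment term, Nefm was called higher with a log2 difference of 0.76 (SE 0.141, adjusted p = 7.84e-05). In the same fit Atf3, at 2.19 and 4.23 CPM against 0.443 CPM, was called higher with 2.84 (adjusted p = 2.03e-04), and Stmn2 differed by -0.08 (adjusted p = 0.787). That fit called 2 of the 9 genes and 8.27% of all genes tested higher. With all 4 libraries Atf3 differed by 1.26 (adjusted p = 0.623), and against vehicle replicate 1 alone, at 2.95 CPM, by 0.12 (adjusted p = 0.855). With vehicle replicate 1 as the only one, Nefl (1.37), Nefm (1.47), Ina (0.66), Gap43 (0.64) and Stmn2 (0.85) were called higher, and Nefm had an adjusted p of 4.04e-14. These are 5 of the 9 genes, in a fit that called 15.1% of all genes tested higher. Nefm was thus higher in the amygdala-labelled pair with either reference. The striatal sum was also higher in that pair, and its part in the Nefm difference was not tested.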

How the data were processed

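RNA-seq was analysed in 8 libraries, 2 in each of 4 groups. The authors aligned reads to GRCm38 with STAR 2.4.0 and counted reads per gene with HTSeq 0.6.1, per the labels and the methods, and the deposited counts are not normalized. The strand setting was not given in the sources used here, and the labels and the methods name different library kits. Dividing each count by gene length and by 1 factor per library gave back the deposited FPKM (100% of values within 0.1%). The authors' normalized signal (8 columns in all), fold changes and p-values were not used.

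Counts were filtered with filterByExpr, scaled by TMM within each table and tested with edgeR 4.0.16 (quasi-likelihood, R 4.3.3), with Benjamini-Hochberg adjustment over 17581 or 17565 genes and a threshold of 0.05. DESeq2 1.42.0, limma-voom 3.58.1, other scaling, no filter, a replicate block and each library left out were alternatives. On simulated counts the test was checked for recovery of known changes, with the spread between libraries set near that of the stroke experiment (coefficient of variation 11.4%). The fitted spread was 32.1% for RGFP109 against vehicle and 26.5% for the labelled tissues, so recovery at those spreads was not checked. The tables were normalized separately, so levels set across them carry no test. Depth limits genes of few counts such as Atf3 and Sprr1a. For RGFP109 against vehicle the number is the labelled tissue, shared by the labels (correlation of same-numbered deviations over genes 0.299), and the block changed no call. The 10 genes, and the lists of axon and marker genes, were chosen with earlier results of these data known. All 10 genes were named, and from each of the 3 axon lists the genes that passed, up to the 6 with the largest fold in each direction. Exons were taken from GENCODE M21 and promoters from RefSeq, and matplotlib 3.10.9 drew the figures.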

Additional observations from a re-analysis of the deposited data

Results flagged for a closer look

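For 6 of the 9 genes the RGFP109 and vehicle libraries lay in opposite order in replicate 1, labelled cortex, and replicate 2, labelled amygdala. The log2 ratio in replicate 1 minus that in replicate 2 was 1.04 for Nefm (0.72 and -0.31), 0.98 for Stmn2 (0.94 and -0.04), 0.56 for Ina (0.49 and -0.07), 0.52 for Gap43 (0.32 and -0.20), 0.31 for Nefh (0.03 and -0.28) and -0.84 for Sox11 (-0.51 and 0.33). The ratios of Stmn2 in replicate 2 and of Nefh in replicate 1 were within counting error of 0. With 1 library of each treatment in each number, none of these differences was tested. Vehicle replicate 1, which enters each of them, held 1314 CPM of olfactory bulb genes, and the part of these in the differences was not tested.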

How the results depend on the processing

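For PTS + RS against RS, 624 genes passed, and the count was 1835 without the filter on low counts and 371 to 2691 with 1 library left out. Among the 10 genes, those called higher numbered 2 without the filter (Atf3 and Sox11), 0 with limma-voom and 0 to 2 with a library left out. Those called lower numbered 1 without the filter (Nefm) and 0 to 2 with a library left out. Log2 differences that changed sign with a library left out ranged from -0.33 to 0.030 for Nefl and from -0.20 to 0.024 for Ina (above 0 without PTS + RS replicate 1), and from -0.0040 to 0.12 for Stmn2 (below 0 without RS replicate 2). The replicates of the stroke experiment share only a number (correlation of deviations 0.0354), and the replicate block gave 915 calls there, with Atf3 at adjusted p = 0.0300 and no change of call among the 10 genes.

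For RGFP109 against vehicle, 0 to 93 genes passed with a library left out, the 93 without vehicle replicate 2. Log2 differences ranged from -0.58 to 1.05 for Nefm, -0.14 to 0.57 for Ina, -0.31 to 0.44 for Gap43, -0.28 to 0.031 for Nefh and -0.35 to 0.15 for Sox11. For the labelled tissues, 240 genes passed without the filter, 207 with DESeq2 and 0 to 5383 with a library left out, and 0 to 5 of the 10 genes were called higher. Log2 differences ranged from -0.081 to 0.85 for Stmn2, -0.16 to 0.36 for Sox11 and -0.31 to 0.14 for Tubb3. These fits with 3 libraries had no treatment term, an alternative chosen after seeing the data, as was the other gene length for Nefm and Stmn2. The causes of these changes were not tested. The 2 libraries a group limit the precision of every test, and depth limits it as well for Atf3 (7 to 78 counts a library) and Sprr1a (0 to 3 counts).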
